A study of Mus musculus with 28 samples.

Results

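The comparison described here set splenic dendritic cells of NOX2 knockout mice from the angiotensin II (Ang II) group against those from the vehicle group. It was formed from the 4 arrays whose titles named the GP91 Phox knockout with Ang I and whose descriptions named Ang II, which was followed, and from the 3 arrays titled GP91 Phox Sham, which gave 7 of the 28 arrays of the series. All 7 samples carried the knockout of GP91 Phox, the other name of NOX2, so the vehicle samples lacked the oxidase as well, and all mice were 3 months old. The wild-type samples used beside them were C57BL6/J dendritic cells with Ang II (n = 4) and with vehicle (n = 7), also 3 months old. The other wild-type arrays of the series, of the same age, had Ang II with 2-HOBA or Ang II with hydralazine and hydrochlorothiazide. They were not compared here, but they entered the signal filter, the spread behind the intervals and p-values, and the check of Cybb. The labels called the arrays biological replicates, but the sources used here gave neither the number of mice behind each array, nor the sort, nor the dose and duration of Ang II. By the series design, cells were treated after isolation, yet the title is about hypertension, and it is not known if Ang II was given to animals or to isolated cells.

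NOX2, encoded by Cybb, is the electron-carrying core of the phagocyte NADPH oxidase. Together with its membrane partner p22phox it passes electrons from NADPH to oxygen and makes superoxide, once cytosolic subunits and a Rac GTPase have joined the complex. Ang II is the effector peptide of the renin-angiotensin system, and oxidase activation is among its best known actions on vascular and immune cells. Dendritic cells take up antigen, display it on MHC molecules and provide costimulation to T cells, and in mouse spleen they include conventional cells of types 1 and 2 (cDC1 and cDC2) and plasmacytoid cells. The comparison therefore addressed what Ang II does to the dendritic cell profile when this oxidase is absent.

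Values are log2 signals on the RMA scale, on which a difference of 1 is 2-fold, and each gene is represented by 1 probe set. A signal above 5 on at least 3 of the 28 arrays was required, which 10452 of 19938 genes met. At that boundary, the third-highest value was 5.0006 for Teddm1b, which was kept, and 4.9999 for Dmrtc2, which was not. Calls required a p below 0.05 after Benjamini-Hochberg adjustment in limma, a linear model fitted to all genes at once. Differences are Ang II minus vehicle, and the intervals given with them are 95% intervals from that model.

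Cybb was read first, as a check of the genotype. Knockout arrays had levels of 6.41 to 7.18, whereas 20 of 21 wild-type arrays, of all treatments, had 8.35 to 9.75. Replicate 2 of wild-type vehicle was the other one, at 6.34, which went against its label. Its mean correlation with all other arrays was 0.744, whereas that of knockout arrays was 0.884 to 0.918. Its interquartile range was 1.92, the lowest of the series, with 2.43 the next lowest. What lay behind its Cybb level was not tested. Several defining markers of dendritic cells were well above the signal level on every knockout array, and others were dim. Itgax, which encodes CD11c, was 7.98 to 8.31 with Ang II and 8.15 to 8.56 with vehicle, and Flt3, the receptor for the growth factor that sustains these cells, was 7.75 to 7.99 with Ang II and 7.61 to 8.36 with vehicle. The invariant chain gene Cd74, which is not particular to dendritic cells, was 10.87 to 11.16 with Ang II and 11.15 to 11.40 with vehicle. Zbtb46, a transcription factor of conventional dendritic cells, was 5.20 to 6.07 with Ang II and 5.41 to 5.77 with vehicle. The cDC1 genes varied in level. Xcr1 was 4.32 to 4.84 with Ang II and 4.20 to 5.01 with vehicle, and Itgae was 3.99 to 5.47 and 3.76 to 5.42. Clec9a was 7.44 to 7.99 with Ang II and 7.08 to 7.80 with vehicle, and Irf8 was 8.14 to 8.66 and 8.27 to 8.69. Markers of other spleen cells were also above the signal level, among them the B cell gene Ms4a1 at 7.42 to 9.02 with Ang II and 8.54 to 9.09 with vehicle, and the neutrophil gene S100a8 at 9.96 to 12.49 with Ang II and 9.29 to 12.05 with vehicle.

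The array of Ang II replicate 4 stood apart from the other knockout arrays. Its mean correlation with them was 0.922, against 0.935 to 0.948 for the others. On it, 55 genes exceeded every other knockout array by more than 1, whereas this held for 0 to 2 genes on each of the other arrays. Those 55 genes included 9 of the 10 tested erythroid markers and 3 of 25 cell cycle genes. Another 21 genes were more than 1 below every other knockout array, as were 20 on Ang II replicate 2. For many of the lists and named genes that replicate 4 moved, values without it, or ranges with each knockout array left out, are therefore given as well. The median signal of an array was 4.46 ± 0.02 with Ang II (SD, n = 4) and 4.44 ± 0.03 with vehicle (SD, n = 3), a difference of 0.02 (exact permutation p = 0.314, two-sided, 35 splits, smallest possible p 0.0286). The interquartile range was 2.53 ± 0.03 with Ang II and 2.57 ± 0.13 with vehicle, a difference of -0.04 (exact permutation p = 0.457).

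No gene was called between Ang II and vehicle in NOX2 knockout cells: limma called 0 of 10452 genes (0.00%). An unadjusted p below 0.05 was reached by 296 genes (2.83%), of which 123 (1.18%) had higher means with Ang II and 173 (1.66%) lower ones. Groups did not overlap for 500 genes (4.78%), with all 4 Ang II arrays above all 3 vehicle arrays for 230 (2.20%) and below them for 270 (2.58%). The smallest adjusted p was 0.154, for Smim8, and the next was 0.99987. The precision of the comparison is seen from the intervals, whose half-width had a median of 0.49, with 0.38 at the 10th and 0.70 at the 90th percentile. For 9530 genes (91.2%) the interval lay within -1 to 1. Removing Ang II replicate 4 left 0 genes called and 282 with an unadjusted p below 0.05.

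The 10 genes of smallest p in each direction are described next. They were picked by that p, so their values describe them and the number of separated groups is no test. For 19 of these 20 genes the groups did not overlap, and Ltv1 was the exception. Most were dim: 2 had both means below 5, and another 9 had 1 of the means below 5.

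Smim8, which encodes a small integral membrane protein, had the smallest p. Its levels were 4.19, 3.95, 3.72 and 3.74 with Ang II and 4.52, 4.87 and 4.81 with vehicle, so all Ang II arrays were below all vehicle arrays. The difference was -0.83 (95% interval -1.16 to -0.50, limma adjusted p = 0.154). No knockout array reached the signal level of 5 for Smim8, which passed the filter through 6 wild-type arrays, where it was 4.42 to 5.29. Between wild-type groups it differed by -0.05 (4.60 ± 0.14 with Ang II, n = 4, and 4.64 ± 0.19 with vehicle, n = 7).

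Otud1, a deubiquitinase, had levels of 4.84, 5.00, 4.99 and 4.59 with Ang II and 5.35, 5.75 and 6.24 with vehicle. The groups were fully separated, and the difference was -0.93 (interval -1.37 to -0.48). Tsr2, which takes part in ribosome assembly, had 4.64, 4.77, 4.81 and 4.31 with Ang II and 5.41, 5.52 and 5.24 with vehicle, a difference of -0.75 (interval -1.13 to -0.37). Aar2, whose yeast counterpart helps to assemble the U5 particle of the spliceosome, had 5.42, 4.62, 5.07 and 5.13 with Ang II, below vehicle levels of 5.70, 5.71 and 5.68, a difference of -0.64. The vehicle levels of Aar2 were almost equal (SD 0.02), and the Ang II levels were spread more widely (SD 0.33).

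Cenpw, a kinetochore component, was 4.93, 3.96, 4.36 and 4.32 with Ang II and 5.07, 5.62 and 5.20 with vehicle (-0.90, interval -1.43 to -0.37). Pigh, an enzyme subunit in the first step of GPI anchor synthesis, was 4.33, 3.73, 3.83 and 4.21 with Ang II and 5.07, 4.92 and 4.55 with vehicle (-0.82, interval -1.33 to -0.32). Cenpw and Pigh were thus separated, with Ang II means of 4.39 and 4.02, both under the signal level. Rrp15, a ribosome biogenesis factor, differed by -0.66, and Ltv1, which acts in maturation of the small ribosomal subunit, by -0.59 with Ang II levels of 6.37, 5.90, 5.33 and 5.49 and vehicle levels of 6.44, 6.44 and 6.21. Tctex1d2, a dynein light chain gene, differed by -0.95 and Tmco6 by -0.61.

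Glyctk, which encodes glycerate kinase, led the genes with higher means. Its levels were 5.31, 4.77, 5.17 and 5.11 with Ang II and 4.29, 4.26 and 4.03 with vehicle, a fully separated difference of 0.89 (interval 0.41 to 1.38). Wipi2, a phosphoinositide-binding protein needed for autophagosome formation, had 6.58, 6.45, 6.33 and 6.54 with Ang II and 5.98, 5.98 and 5.70 with vehicle (0.58, interval 0.25 to 0.91). Wipi2 was above the signal level on all 7 knockout arrays, as was Trmo. Trmo, a tRNA methyltransferase, had 6.62, 6.01, 6.25 and 6.71 with Ang II and 5.95, 5.32 and 5.79 with vehicle (0.71, interval 0.30 to 1.12).

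Interferon-inducible families supplied a pair of these genes. Ifitm7, of the interferon-induced transmembrane family, had 5.04, 5.68, 5.74 and 5.17 with Ang II and 4.70, 4.82 and 4.59 with vehicle (0.70, interval 0.29 to 1.11). Ifi208, of the PYHIN family of nucleic acid sensors and regulators, had 5.29, 5.33, 4.64 and 4.79 with Ang II and 3.87, 4.35 and 3.85 with vehicle (0.99, interval 0.38 to 1.60). All Ang II levels of both genes were above all vehicle levels. Both families have members of similar sequence, and cross-hybridisation between them was not tested. The remaining 5 genes were Mroh2a (0.71), Cdr2 (0.73), Flywch2 (0.58), Rundc1 (0.64) and Tceal8 (0.71).

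The promoters of Smim8 and Ifi208 are shown because Smim8 had the smallest p and Ifi208 differed by nearly the same amount in knockout and wild-type cells. They run from 250 bases before to 50 bases after the RefSeq start (GRCm38.p6), with Smim8 at chr4:34778317-34778616 on the minus strand and Ifi208 at chr1:173673415-173673714 on the plus strand, each printed 5′ to 3′ along its gene, and both matched the table by symbol.
Smim8: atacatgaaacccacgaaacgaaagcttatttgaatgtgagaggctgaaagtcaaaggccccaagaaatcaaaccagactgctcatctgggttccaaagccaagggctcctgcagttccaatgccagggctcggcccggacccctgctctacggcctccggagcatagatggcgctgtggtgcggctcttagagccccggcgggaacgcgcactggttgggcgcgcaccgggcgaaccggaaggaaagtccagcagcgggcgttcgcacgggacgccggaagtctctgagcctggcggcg
Ifi208: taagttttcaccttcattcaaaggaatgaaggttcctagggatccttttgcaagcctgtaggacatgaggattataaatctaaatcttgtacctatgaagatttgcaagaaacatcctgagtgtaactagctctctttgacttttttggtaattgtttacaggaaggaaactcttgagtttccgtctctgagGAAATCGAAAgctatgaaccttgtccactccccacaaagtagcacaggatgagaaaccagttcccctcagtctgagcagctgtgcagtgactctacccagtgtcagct
Capitals mark a match to GAAA, any 2 bases and GAAA again, the core letters of interferon regulatory factor elements. Searched on both strands, this motif was found in 3.44% of 32851 promoters of this length, and in Ifi208 it began 58 bases before the start on the gene's own strand. No match to TGANTCA, the AP-1 element, which 7.81% of the promoters hold, lay in either window, and the GAAA motif was not found in that of Smim8. The promoter of Ifitm7, the other gene of an interferon-inducible family named above, was searched as well and held neither motif.

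**Figure D1:**
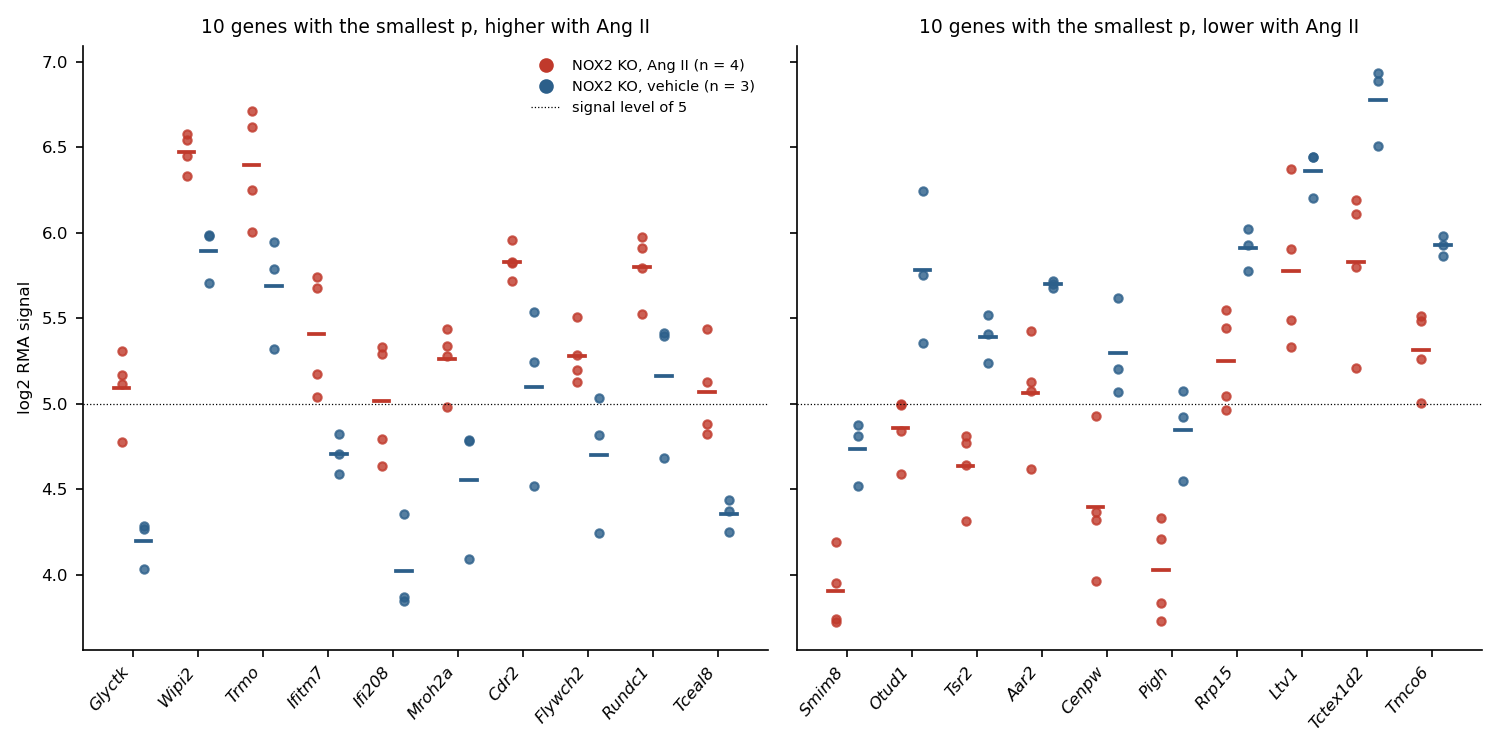
Log2 RMA signal (vertical axis) of the 10 genes of smallest p with higher means (left) and the 10 with lower means (right) in NOX2 knockout dendritic cells, with Ang II in red and vehicle in blue. Points are arrays, bars are group means and the dotted line is the signal level of 5. For 19 of the 20 genes the groups do not overlap, and many points lie around or below the dotted line.

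Only 4 genes had a mean difference of 1 or more in size. Snord14e, a small nucleolar RNA, had 5.14, 5.75, 6.05 and 6.12 with Ang II and 7.50, 6.88 and 6.82 with vehicle, a separated difference of -1.30 (interval -2.36 to -0.23). The other three overlapped between groups. Chil3, a chitinase-like protein of myeloid cells, differed by 1.27, the red cell anion exchanger gene Slc4a1 by 1.18 and the carbonic anhydrase gene Car1 by 1.22. Without Ang II replicate 4 these differences were 0.58, 0.39 and 0.03, while that of Snord14e was -1.42. These 4 genes were picked by size after their values were seen.

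Genes of the oxidase complex differed little between Ang II and vehicle. Of 7 tested members, 2 had higher and 5 lower means with Ang II, with a median difference of -0.11, whereas 47.4% of all tested genes were higher and 52.6% lower, with a median of -0.01. None was called, and for none did the groups separate, as they did for 4.78% of all tested genes. Cyba, which encodes p22phox, had 8.68, 7.83, 8.52 and 8.82 with Ang II and 8.84, 9.04 and 8.35 with vehicle (-0.28, interval -1.04 to 0.47). Ncf1, the organiser subunit p47phox, had 7.80, 8.11, 7.65 and 7.76 with Ang II and 7.92, 7.46 and 7.90 with vehicle (0.07, interval -0.36 to 0.51). The remnant signal of Cybb averaged 6.71 ± 0.33 with Ang II and 6.82 ± 0.31 with vehicle (-0.11, interval -1.01 to 0.79), Rac1 differed by -0.10, Rac2 by -0.16, the p40phox gene Ncf4 by -0.12, and Noxo1, the organiser of the related oxidase NOX1, by 0.30. The median was 0.03 without vehicle replicate 1. Nox1, Nox3, Nox4, Noxa1, Duox1 and Duox2 were under the signal level.

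Few genes of the renin-angiotensin system passed the signal level. The receptor genes Agtr1a, Agtr2 and Mas1, angiotensinogen and the aminopeptidase Enpep did not pass it. Of the 4 that did, 1 had a higher and 3 lower means with Ang II (median -0.24, and -0.12 without vehicle replicate 2). Ace, the converting enzyme that makes Ang II, was 7.35, 7.49, 7.56 and 8.32 with Ang II and 7.95, 7.18 and 7.25 with vehicle (0.22, interval -0.60 to 1.05), and 0.01 without Ang II replicate 4. Anpep, an aminopeptidase that trims angiotensin peptides, differed by -0.50 and the prorenin receptor gene Atp6ap2 by -0.38, each with an interval that included 0. The AT1 receptor-associated protein gene Agtrap differed by -0.10.

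Cytokine genes split evenly, with 9 of 18 tested inflammatory and NF-kB genes higher and 9 lower (median 0.02). Il1b, a proinflammatory cytokine, had 7.09, 7.65, 7.01 and 7.73 with Ang II and 7.81, 7.89 and 7.62 with vehicle (-0.40, interval -1.29 to 0.48). Its Ang II levels reached into the vehicle range. Tnf had 6.36, 6.61, 6.10 and 6.45 with Ang II and 5.84, 7.05 and 6.31 with vehicle (-0.02, interval -0.51 to 0.47), the vehicle arrays being spread more widely than the Ang II arrays. Casp1, the protease that activates interleukin 1 beta, differed by -0.36, and Nfkbia, the inhibitor that holds NF-kB in the cytoplasm, by 0.25. Il6, Il10 and Il23a were under the signal level.

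Chemokine genes were also split, 8 higher and 8 lower of 16 (median -0.07, and 0.18 without vehicle replicate 1). Ccl5, a T cell attractant, had 9.58, 8.95, 8.97 and 8.78 with Ang II and 9.22, 9.87 and 9.45 with vehicle (-0.44, interval -1.03 to 0.14). Cxcr4, the receptor for Cxcl12, was separated, at 10.08, 10.21, 10.004 and 10.07 with Ang II and 9.82, 9.79 and 9.76 with vehicle, although the interval of its difference of 0.30 ran from -0.13 to 0.72. That interval comes from a spread shared by all 6 groups of the series, which was wider than the spread seen here. Cxcl2, a neutrophil attractant, had the largest mean difference of the list, 0.77 (interval -0.74 to 2.29), and was separated too, at 4.58 to 5.08 with Ang II and 3.65 to 4.30 with vehicle. Ccl2, the monocyte attractant, differed by 0.37 and stayed under 5 on all 7 arrays.

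Costimulatory genes had lower means with Ang II in 8 of 11 members (median -0.20, against -0.01 for all genes). Cd86, a ligand of CD28, had 6.13, 6.38, 6.48 and 6.64 with Ang II and 7.01, 6.62 and 6.53 with vehicle (-0.31, interval -1.03 to 0.40). Cd80, the other CD28 ligand, had 5.14, 5.64, 5.45 and 5.66 with Ang II and 5.33, 5.98 and 5.85 with vehicle (-0.25, interval -1.04 to 0.54). Both overlapped between groups. Icosl, the ligand of ICOS, differed by -0.42 and Tnfsf9, the ligand 4-1BBL, by -0.30 at levels under 5. The median of the list was -0.13 to -0.26 when each knockout array was left out in turn.

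**Figure D2:**
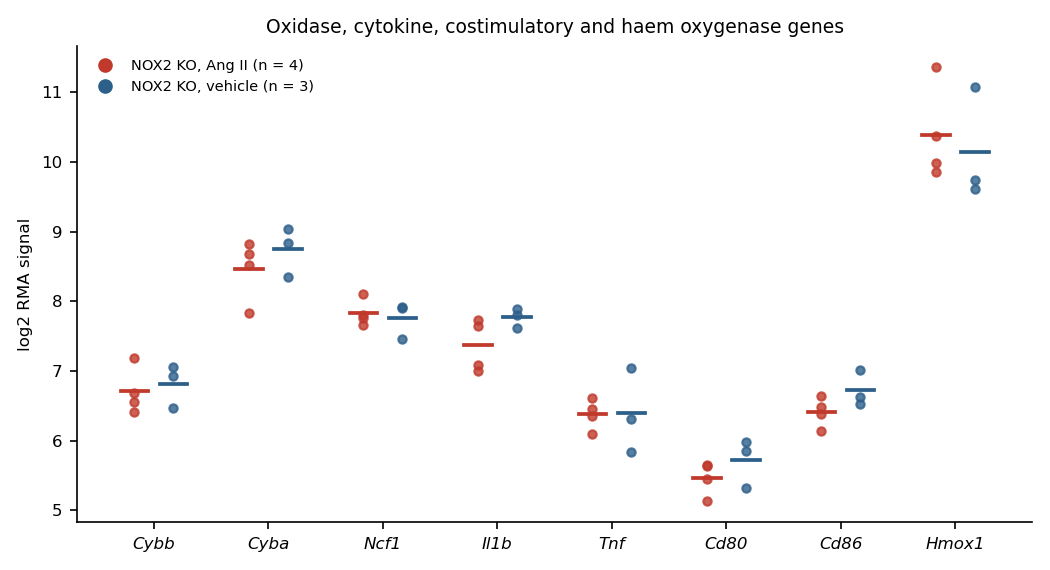
Log2 RMA signal (vertical axis) of 3 oxidase genes, 2 cytokine genes, 2 costimulatory genes and Hmox1 in NOX2 knockout dendritic cells with Ang II (red, n = 4) and vehicle (blue, n = 3). Points are arrays and bars are means, and the groups overlap for each of the 8 genes.

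Immediate early genes, which respond first to many stimuli, showed 14 higher and 10 lower of 24 (median 0.03). Nr4a1, an orphan nuclear receptor, was separated, with 8.36, 8.60, 8.37 and 8.70 with Ang II and 8.14, 7.81 and 8.04 with vehicle (0.51, interval -0.57 to 1.60). Fosl2, an AP-1 component, differed by 0.48 and Klf2, a factor of leukocyte quiescence and trafficking, by 0.30. Heat shock genes were higher in 4 and lower in 8 of 12 (median -0.07, and -0.01 without vehicle replicate 1 and -0.15 without vehicle replicate 3). Hspa1a, the inducible HSP70, had 5.22, 5.13, 5.39 and 5.72 with Ang II and 6.40, 5.88 and 5.75 with vehicle, a separated difference of -0.64 (interval -1.33 to 0.04). Dnajb1, its cochaperone, differed by -0.40 and the mitochondrial chaperonin gene Hspe1 by -0.30, both with overlapping groups.

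Antioxidant genes were higher in 11 and lower in 7 of 18 (median 0.04), and lower in 13 without Ang II replicate 4 (median -0.10). Hmox1, haem oxygenase 1, had 9.85, 10.38, 9.99 and 11.36 with Ang II and 11.07, 9.61 and 9.74 with vehicle. A single array of each group, Ang II replicate 4 and vehicle replicate 1, was high, and the difference was 0.25 (interval -0.53 to 1.04), or -0.07 without Ang II replicate 4. Gclm, a subunit of the rate-limiting enzyme of glutathione synthesis, was 4.84, 4.65, 5.42 and 6.40 with Ang II and 5.31, 4.76 and 4.56 with vehicle, and its difference of 0.45 was 0.10 without that array. Gsr, glutathione reductase, differed by 0.42 (0.24 without it), and Keap1, the sensor that restrains NRF2, by 0.27. Nqo1 and Slc7a11 were under the signal level.

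Genes of lipid mediators and aldehydes had mostly lower means. Eicosanoid synthesis genes were lower in 7 of 9 (median -0.12, but 0.13 without vehicle replicate 1), with the prostaglandin E synthase Ptges3 separated at 8.18, 8.14, 8.27 and 8.31 with Ang II and 8.50, 8.72 and 8.41 with vehicle (-0.32, interval -0.95 to 0.32). The leukotriene C4 synthase gene Ltc4s differed by -0.29 and the thromboxane synthase gene Tbxas1 by -0.22. Aldehyde metabolism genes were lower in 7 of 10 (median -0.07, and 0.04 without vehicle replicate 1). Cbr1, a carbonyl reductase, had 4.53, 4.68, 4.26 and 4.41 with Ang II and 5.03, 4.59 and 5.36 with vehicle (-0.52, interval -1.07 to 0.02). Aldh2, the mitochondrial aldehyde dehydrogenase, differed by 0.25.

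Oxidative phosphorylation genes, which encode the respiratory chain and ATP synthase, had lower means with Ang II in 29 of 30 members, where 52.6% of all tested genes were lower. Their median difference was -0.23, against -0.01 for all genes. None was called, and 1 member had an unadjusted p below 0.05, beside 2.83% of all tested genes. That member, cytochrome c (Cycs), had 6.70, 6.68, 6.70 and 6.97 with Ang II and 7.71, 7.61 and 7.01 with vehicle, a separated difference of -0.68 (interval -1.25 to -0.11). Sdhb, a subunit of succinate dehydrogenase, had 6.18, 6.19, 6.29 and 6.29 with Ang II and 6.83, 6.59 and 6.30 with vehicle (-0.34), with the Ang II arrays just below the lowest vehicle array. Atp5o, a stalk subunit of ATP synthase, differed by -0.49. The list mean per array was 7.20, 6.86, 7.27 and 7.44 with Ang II and 7.59, 7.57 and 7.14 with vehicle, so vehicle replicate 3 was within the Ang II range. The median was -0.34 without Ang II replicate 4, -0.10 without Ang II replicate 2 and -0.35 without vehicle replicate 3, and without Ang II replicate 4 the members were lower in 28 of 30. Between wild-type groups 16 of the 30 were higher and 14 lower with Ang II (median 0.03), and the difference between genotypes was not tested for the list. For Cycs it was, at -0.98 (interval -1.72 to -0.25, limma adjusted p = 0.99999).

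Glycolysis and hypoxia genes were lower in 10 of 14 (median -0.08, and -0.02 without vehicle replicate 1 and -0.14 without vehicle replicate 3), with the glucose transporter Slc2a1 at -0.32, phosphofructokinase Pfkl at -0.22 and the glycolytic isomerase Tpi1 at 0.22 (0.15 without Ang II replicate 4). Genes of the unfolded protein response were higher in 8 and lower in 9 of 17 (median -0.03, but 0.10 without vehicle replicate 1 and 0.04 without Ang II replicate 1). Eif2ak3, the stress kinase PERK, had 5.24, 5.95, 6.24 and 5.68 with Ang II and 6.26, 6.29 and 6.04 with vehicle (-0.42, interval -0.82 to -0.03). Dnajb9, a chaperone of the endoplasmic reticulum, differed by -0.59 and Atf4, a transcription factor downstream of PERK, by 0.23.

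Genes of MHC class II presentation had lower means in 11 of 13 members (median -0.19), and the range without each knockout array was -0.28 to -0.11. The list mean was 8.75, 8.65, 8.93 and 8.84 with Ang II and 9.17, 8.97 and 8.93 with vehicle. H2-Ob and H2-Oa, which form the DO heterodimer that restrains peptide loading, were separated. H2-Ob had 8.33, 8.24, 8.46 and 7.52 with Ang II and 8.49, 8.94 and 8.62 with vehicle (-0.55, interval -1.26 to 0.17, and -0.34 without Ang II replicate 4), and H2-Oa had 8.70, 8.34, 8.71 and 8.17 with Ang II and 8.84, 8.88 and 8.98 with vehicle (-0.42, interval -0.99 to 0.15). H2-DMa, part of the DM peptide exchange factor, differed by -0.51. H2-Ob and H2-Oa are abundant in B cells as well. The B cell list described below had a median of -0.30, and of -0.01 without Ang II replicate 4. Whether B cell RNA had a part in these differences was not tested.

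MHC class I presentation genes were lower in 9 of 14 (median -0.11, and -0.05 without vehicle replicate 1 and -0.19 without vehicle replicate 3). The proteasome activator gene Psme1 had 9.54, 9.44, 9.51 and 9.66 with Ang II and 9.94, 9.83 and 9.69 with vehicle (-0.28, interval -0.68 to 0.12), with all Ang II arrays lower. Tapbp, which encodes tapasin of the peptide loading complex, had 7.05, 7.002, 7.25 and 7.23 with Ang II and 6.95, 6.70 and 6.81 with vehicle (0.31, interval -0.10 to 0.72), with all Ang II arrays higher. Psme2, the partner of Psme1, differed by -0.32.

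Interferon-stimulated genes were higher in 11 and lower in 9 of 20 (median 0.02), a split like that of all genes. Oas3, an antiviral oligoadenylate synthetase, had 5.59, 5.37, 5.01 and 5.62 with Ang II and 5.41, 4.56 and 4.62 with vehicle (0.53, interval 0.10 to 0.97). Irf9, the DNA-binding subunit of the ISGF3 factor, had 6.55, 7.08, 6.64 and 6.56 with Ang II and 7.27, 6.97 and 6.98 with vehicle (-0.36, interval -0.69 to -0.04). Irf7, which drives type I interferon production, was separated, with a difference of 0.27. Toll-like receptor genes were lower in 9 of 15 (median -0.08, but 0.11 without vehicle replicate 1 and 0.03 without Ang II replicate 2), with Tlr1 at -0.56, Tlr6 at -0.28 and Tlr7 at 0.29.

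Cell cycle genes had higher means with Ang II in 18 of 25 members (median 0.14), but in 10 of 25 without Ang II replicate 4 (median -0.06). The list mean was 5.44, 5.67, 5.57 and 6.52 with Ang II and 5.87, 5.52 and 5.45 with vehicle, so replicate 4 was above the other 6 arrays. Mcm7, a subunit of the replicative helicase, had 6.05, 6.25, 6.06 and 6.96 with Ang II and 5.67, 6.02 and 5.63 with vehicle, and its difference of 0.56 was 0.35 without that array. The cyclin gene Ccnb2 differed by 0.61, and by 0.34 without it. Bub1, a mitotic checkpoint kinase, differed by 0.59 at levels under 5 on all 7 arrays, and by 0.71 without it.

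None of the markers of the dendritic cells themselves was called. In these bulk samples, fewer cells of a type and less RNA per cell cannot be told apart. Shared dendritic cell genes had lower means in 9 of 10 members (median -0.18, and -0.25 to -0.14 without each knockout array), against -0.01 for all genes. The list mean was between 6.79 on replicate 4 and 7.15 on replicate 3 with Ang II, and 7.30, 7.12 and 7.21 with vehicle. Only Ang II replicate 3 was inside the vehicle range. Kmo, an enzyme of tryptophan breakdown, and Adam11 were separated. Kmo was 7.19 to 7.76 with Ang II and 7.78 to 8.09 with vehicle (-0.44, interval -1.31 to 0.44). Adam11 had 5.71, 5.61, 6.05 and 5.68 with Ang II and 6.13, 6.06 and 6.26 with vehicle (-0.39, interval -1.05 to 0.27), Traf1, a TNF receptor adaptor, differed by -0.50 and Btla, an inhibitory receptor, by -0.47. The defining genes Flt3 and Zbtb46 differed by -0.01 and 0.07, and Itgax by -0.19. Traf1 and Btla were lowest on Ang II replicate 4, at 6.30 and 6.02, and differed by -0.29 and -0.27 without it.

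cDC1 genes were lower in 8 of 13 (median -0.04, but 0.02 without vehicle replicate 1 and 0.03 without Ang II replicate 1), among them the chemokine receptor gene Xcr1 at -0.24. cDC2 genes were lower in 7 of 11 (median -0.05, but 0.03 without Ang II replicate 1), with the lectins Cd209a at -0.65 and Clec4a4 at -0.47 (-0.25 without Ang II replicate 4). Plasmacytoid genes were higher in 6 of 10 (median 0.19, 0.14 without Ang II replicate 4, 0.30 without vehicle replicate 1 and 0.08 without vehicle replicate 3). Their list mean was 7.01, 6.98, 7.12 and 6.83 with Ang II and 7.07, 6.93 and 6.71 with vehicle, which overlapped. Irf7, also in this list, was its only separated member, where 4.78% of all tested genes were separated. Cd300c differed by 0.41 and Cox6a2 by 0.40. For Cd300c the corresponding difference between wild-type groups was -0.74, and the difference between genotypes was 1.14 (interval 0.38 to 1.90, adjusted p = 0.99999).

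Erythroid markers showed the highest list median. All 10 tested members had higher means with Ang II, with a median of 0.56. The list mean was 5.05, 4.90, 5.64 and 7.64 with Ang II and 5.61, 4.82 and 5.02 with vehicle, so that Ang II replicate 4 alone was far above the rest. Without it, 6 members were higher and 4 lower (median 0.08). Slc4a1 had 6.90, 6.39, 6.87 and 9.85 with Ang II and 7.08, 5.89 and 6.02 with vehicle, and Rhd, the Rh blood group protein, had 3.74, 4.00, 4.76 and 7.14 with Ang II and 3.88, 4.07 and 4.06 with vehicle. The spectrin gene Sptb differed by 0.47, and by 0.17 without that array. Rhd differed by 0.91, with a range of 0.17 to 1.30 when each knockout array was left out in turn. Wild-type groups showed 10 of 10 members higher as well, with a median of 0.58.

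Neutrophil markers were higher in 8 of 11 members (median 0.50, and -0.06 without Ang II replicate 4 or without vehicle replicate 3). Their list mean was 6.43, 7.48, 6.63 and 8.60 with Ang II and 8.37, 6.48 and 6.11 with vehicle, so that 1 array of each group was high. Without vehicle replicate 1, the high vehicle array, the median was 1.20. Camp, the granule peptide cathelicidin, had 6.88, 7.76, 7.15 and 10.14 with Ang II and 9.06, 6.48 and 6.09 with vehicle. Mpo, myeloperoxidase, had 4.24, 5.00, 4.71 and 6.29 with Ang II and 5.94, 3.94 and 3.78 with vehicle. Leaving out each knockout array in turn moved the difference of Camp from 0.77 to between 0.05 and 1.69. For Mpo the difference was 0.51 and this range was 0.10 to 1.20. Mmp9, the member of smallest p, went the other way, at -0.47 with a range of -0.73 to -0.34. Cxcr2 (-0.22) and Retnlg (-0.16) were lower as well. Ang II replicate 4 and vehicle replicate 1 were also the highest arrays for monocyte markers. Their list mean was 6.95, 6.86, 7.05 and 7.85 with Ang II and 7.62, 6.64 and 6.45 with vehicle. Monocyte members were higher in 10 of 12 (median 0.28, 0.08 without Ang II replicate 4, 0.58 without vehicle replicate 1 and 0.02 without vehicle replicate 3). Fcgr4, an activating IgG receptor, differed by 0.49 (0.17 without Ang II replicate 4), whereas Fcgr1 and Ccr2 were lower, by -0.37 and -0.21.

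Red pulp macrophage markers, of the iron-recycling phagocytes of the spleen, were higher in 9 and lower in 7 of 16 (median 0.03). Their list mean was 7.05, 7.24, 7.24 and 8.14 with Ang II and 8.06, 7.18 and 6.96 with vehicle, again with Ang II replicate 4 and vehicle replicate 1 highest. The median was -0.28 without the first of these arrays and 0.41 without the second, and also turned negative without vehicle replicate 2 (-0.09) or 3 (-0.24). Fcgr1, the member of smallest p, differed by -0.37, with a range of -0.69 to -0.07 when each knockout array was left out in turn. C1qa, C1qb and C1qc were also lower, by -0.31, -0.26 and -0.16. Mertk, a receptor for apoptotic cells, had 6.38, 7.27, 7.01 and 7.90 with Ang II and 7.38, 6.54 and 6.56 with vehicle (0.31, interval -0.65 to 1.28). Vcam1, an adhesion molecule of these macrophages, differed by 0.30 (interval -0.62 to 1.23). Without Ang II replicate 4 the difference was 0.06 for Mertk and 0.08 for Vcam1, and the differences between genotypes that follow include that array. In wild-type cells all 16 members had lower means with Ang II (median -0.66), with Mertk at -0.97 and Vcam1 at -0.90. These wild-type values include vehicle replicate 2, whose Cybb level went against its label, and values without it are not given. The difference between genotypes was 1.29 for Mertk (interval 0.04 to 2.54) and 1.20 for Vcam1 (interval 0.01 to 2.40), and neither was called (adjusted p = 0.99999 each).

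B cell markers had lower means with Ang II in 12 of 14 members (median -0.30), but in 7 of 14 without Ang II replicate 4 (median -0.01). Their list mean was 8.10, 7.92, 8.22 and 7.10 with Ang II and 7.92, 8.21 and 8.21 with vehicle. Cd79b, a signalling chain of the B cell receptor, had 10.13, 9.01, 10.08 and 8.72 with Ang II and 9.89, 10.26 and 10.11 with vehicle (-0.60, interval -1.34 to 0.14, and -0.34 without Ang II replicate 4). T cell markers were lower in 11 of 13 (median -0.12, and 0.02 without Ang II replicate 4). Cd3d, a chain of the CD3 complex, had 5.45, 5.89, 4.78 and 4.16 with Ang II and 5.44, 6.56 and 6.02 with vehicle (-0.93, interval -1.62 to -0.25), whereas Cd3e differed by -0.05. When each knockout array was left out in turn, the difference of Cd3d was -1.22 to -0.63.

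NK cell markers had lower means in 11 of 11 members (median -0.26), and in 9 of 11 without Ang II replicate 4 (median -0.15). The median was -0.12 without vehicle replicate 2. The list mean was 6.36, 6.51, 6.18 and 5.91 with Ang II and 6.45, 6.72 and 6.35 with vehicle. Nkg7, a cytotoxic granule protein, was separated, at 7.42, 7.44, 7.38 and 6.80 with Ang II and 7.47, 8.02 and 7.80 with vehicle (-0.51, interval -1.34 to 0.33). Gzma, granzyme A, differed by -0.47 and the chemokine gene Xcl1 by -0.35 (-0.23 without Ang II replicate 4). Between wild-type groups 6 NK members were higher and 5 lower (median 0.09).

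The remaining cell types had 11 or fewer tested members each. Platelet genes were higher in 4 of 6 (median 0.14, 0.06 without vehicle replicate 1 and 0.27 without vehicle replicate 3, with the platelet receptor Clec1b at 0.59), stromal genes in 5 of 11 (median -0.02, with fibronectin, Fn1, at -0.37), endothelial genes in 4 of 6 (median 0.03, with Plvap at 0.19) and plasma cell genes in 3 of 5 (median 0.09, with Jchain at 0.34 and Mzb1 at -0.45). Only Kit (-0.27) and Gata2 (0.06) of the mast cell and basophil list were above the signal level. The median without Ang II replicate 4 was -0.11 for plasma cell genes, -0.11 for stromal genes and -0.02 for endothelial genes, and the difference was 0.14 for Jchain and -0.64 for Fn1.

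**Figure D3:**
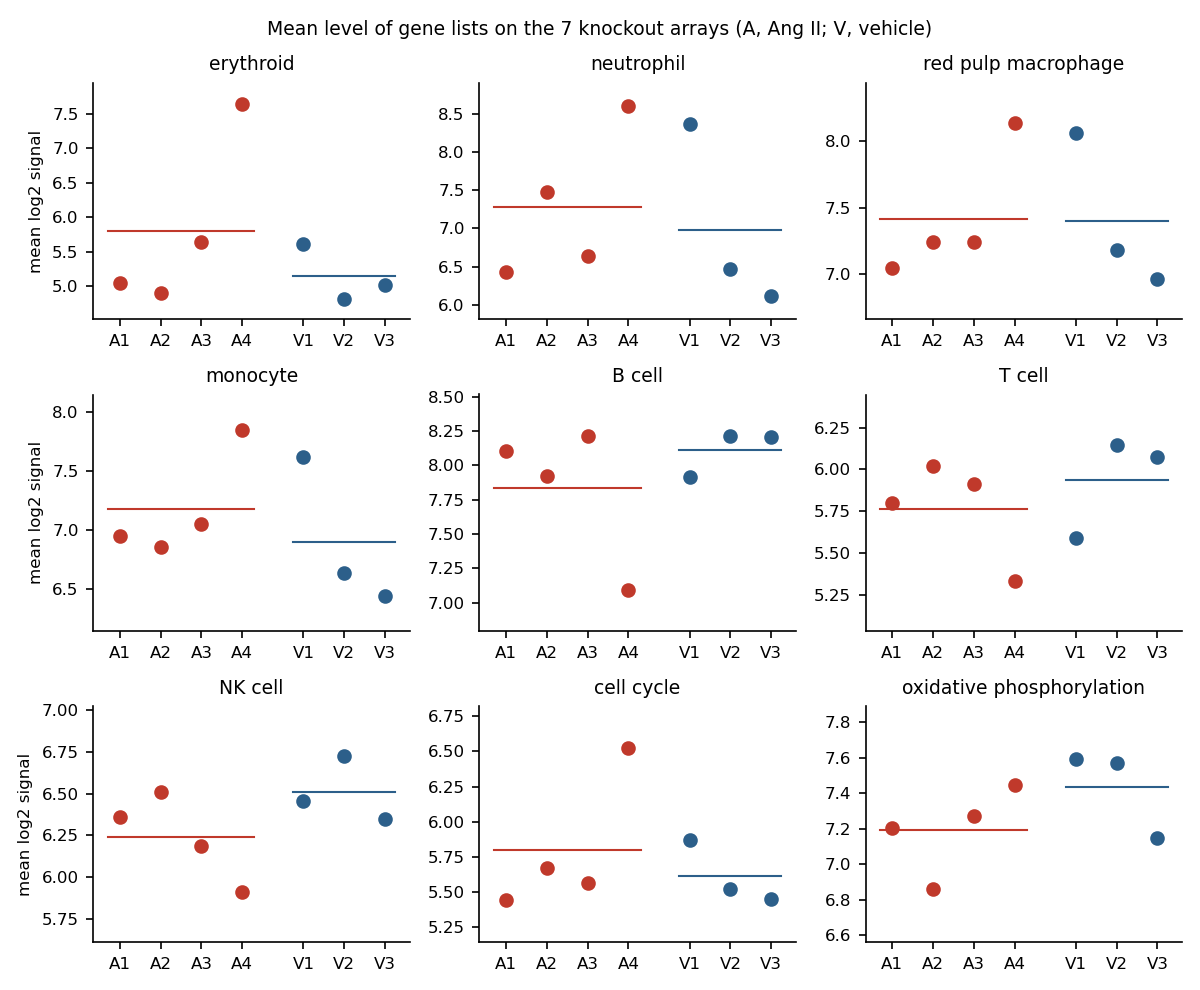
Mean log2 signal of the tested members of 9 gene lists (one panel each) on the arrays of NOX2 knockout cells, with Ang II replicates 1 to 4 (A1 to A4, red) left of vehicle replicates 1 to 3 (V1 to V3, blue); lines are group means and vertical scales differ between panels. A4 is highest for erythroid, neutrophil and cell cycle genes and lowest for B, T and NK cell genes, and V1 is next to it for neutrophil, monocyte and red pulp genes.

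**Figure D4:**
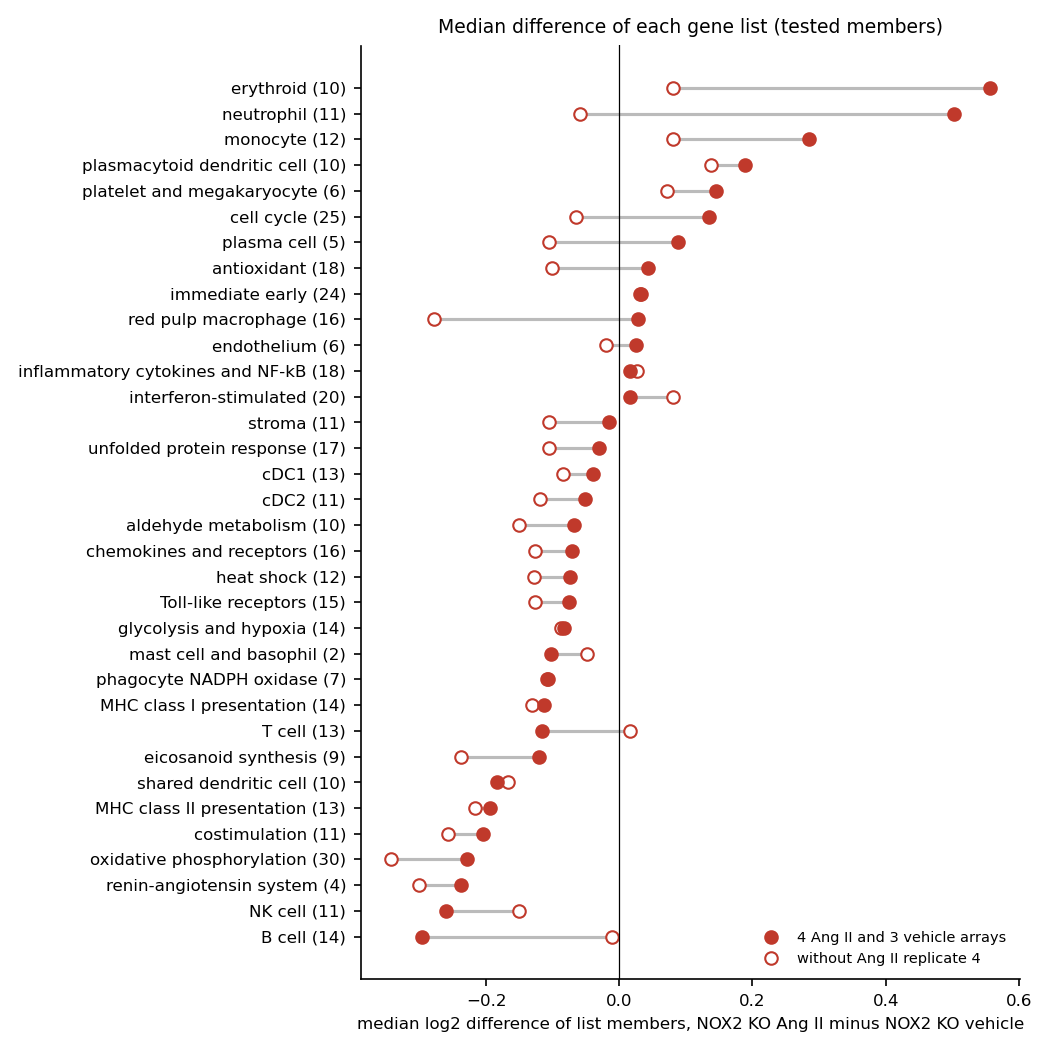
Median log2 difference of the tested members of each of 34 gene lists (member numbers in brackets), NOX2 knockout Ang II minus vehicle, with all 7 arrays (filled) and without Ang II replicate 4 (open). The erythroid median is 0.56 filled and 0.08 open and the B cell median -0.30 and -0.01, while the oxidative phosphorylation median is -0.23 and -0.34.

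The same contrast was set beside that of wild-type cells, which shares no array with it. Limma called 0 of 10452 genes (0.00%) for Ang II in wild-type cells, with 266 (2.54%) at an unadjusted p below 0.05. The test of the difference between genotypes also called 0 (0.00%), with 257 (2.46%) unadjusted, so no gene was shown to respond differently without NOX2. Without wild-type vehicle replicate 2, whose Cybb went against its label, it called 0 with 544 unadjusted. That array is included in every wild-type mean, difference and list median given here, and in every difference between genotypes of a single gene. Over the 10452 genes the differences in knockout and wild-type cells had a Pearson r of 0.05 and a Spearman rho of 0.04, and 5448 genes (52.1%) had the same sign. Of the 14 genes with an unadjusted p below 0.05 in both genotypes, 8 had the same sign and the rest had opposite signs. These are descriptions across genes, which are not independent replicates.

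Of the 20 genes of smallest p in knockout cells, 15 had the same sign between wild-type groups, and 3 had an unadjusted p below 0.05 there. Ifi208 was the closest match. In wild-type cells it averaged 5.40 ± 0.64 with Ang II (n = 4) and 4.42 ± 0.52 with vehicle (n = 7), a difference of 0.97 beside 0.99 in knockout cells, and the difference between genotypes was 0.02 (interval -0.78 to 0.81). Otud1 averaged 5.28 ± 0.07 with Ang II and 5.68 ± 0.33 with vehicle in wild-type cells, -0.40 beside -0.93, and Ltv1 differed by -0.32 beside -0.59. For Glyctk the wild-type difference was -0.23 and the difference between genotypes 1.12 (interval 0.50 to 1.75). For Tsr2 the wild-type difference was 0.17 and the difference between genotypes -0.92 (interval -1.41 to -0.43), and for Smim8 the difference between genotypes was -0.78 (interval -1.21 to -0.36). None of these was called, with a limma adjusted p of 0.99999 each for the difference between genotypes. Since the genes were picked by their p in knockout cells, their differences between genotypes are no separate evidence.

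**Figure D5:**
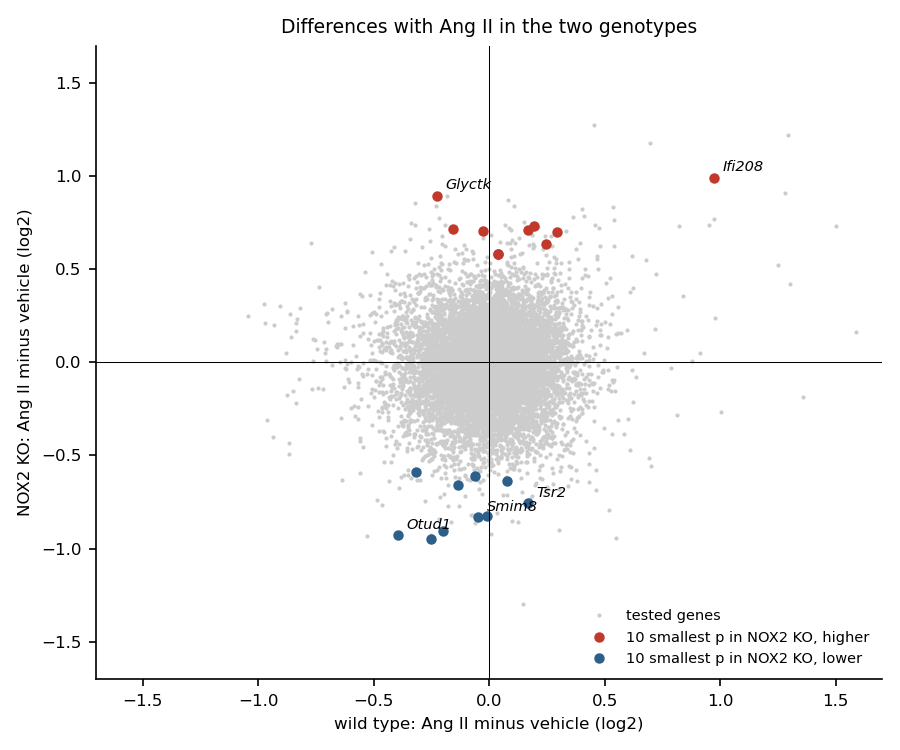
Log2 difference with Ang II in wild-type cells (horizontal axis) and in NOX2 knockout cells (vertical axis) for 10452 genes (grey), with the 10 genes of smallest p in knockout cells in each direction in red (higher) and blue (lower). The cloud shows little slope (r = 0.05), Ifi208 lies near equal values of 0.97 and 0.99, and Smim8 lies near 0 on the horizontal axis.

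Of the genes chosen for the oxidase, cytokine, costimulation and haem oxygenase, none differed between genotypes past the test. The difference between genotypes was -0.43 for Cyba (interval -1.41 to 0.55), 0.16 for Il1b (interval -0.99 to 1.30), -0.22 for Tnf (interval -0.85 to 0.41) and -0.13 for Cd86 (interval -1.06 to 0.80). It was 0.89 for Hmox1 (interval -0.12 to 1.91), where the wild-type difference was -0.64. These intervals are wide beside the differences themselves, and a p above the threshold does not show that the genotypes respond alike.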

How the data were processed

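RNA of splenic dendritic cells, extracted with Trizol and labelled as biotinylated cRNA per the labels' protocols, was measured on 28 Affymetrix arrays, and labels gave each array's place among 6 groups. The authors deposited log2 values for 35556 probe sets (0.90 to 14.34), made with RMA and Partek 6.6 per the submitters' processing notes, and these were used without further scaling. The RMA version is not given in the sources used here. RMA compresses differences of dim genes, and precision is limited by how many arrays there are.

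Gene names came from GEO's platform annotation, with 21789 probe sets carrying 1 gene symbol, 1621 several and 12146 none. Entrez identifiers matched 21698 to RefSeq genes (GRCm38.p6), which changed 0 symbols. For 999 of 19938 genes with several probe sets, the brightest one by its mean was used. A signal above 5 on 3 or more arrays was required. The fit (limma 3.58.1, R 4.3.3, eBayes) had 6 group means over all 28 arrays, so the spread is shared with groups not compared here, and all tests were two-sided. Calls required a p below 0.05 after Benjamini-Hochberg adjustment. The script was tested on simulated data. Errors after ± are SDs over arrays. The labels call the arrays biological replicates but do not say that each came from its own mouse, so p-values measure the spread between arrays, which may be partly technical. Scan dates and slides were not used.

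The members and the 34 gene lists (18 of functions, 16 of cell types, 438 tested entries, some genes in more than 1 list) were chosen with earlier results of these data known. Named genes were 8 fixed ones, the 10 of smallest p in each direction, leaving out predicted genes, pseudogenes and large gene families, and up to 3 of smallest p in each list. Other genes are named as defining markers, as further members of a list or, where said, by size. Promoters were read with Python 3.11.15. Alternatives were other filters, normalizations, weights, eBayes options, probe sets, array sets and call rules, the replicate number as a block, and leaving out each array.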

Additional observations from a re-analysis of the deposited data

Results flagged for a closer look

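In 161 groups of 4 Ang II arrays (named genes, list means and array summaries), 10 had a value far from the other three by Dixon's criterion at 95%, where chance gives about 1 in 20. Ang II replicate 4 held 4 of them, high for Cycs (6.97), Slc4a1 (9.85) and Fn1 (5.19) and low for Nkg7 (6.80). Ang II replicate 2 was low for Noxo1 (4.46) and Hspe1 (8.96) and high for Irf9 (7.08). Ang II replicate 3 was high for Kit (6.87) and for the mean of the costimulation list (6.46) and had the low array median (4.43). The vehicle group of 3 arrays is too small for this criterion.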

How the results depend on the processing

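The count of called genes between Ang II and vehicle in knockout cells was 0 under 18 of 20 alternatives. It was 1 (Smim8, lower with Ang II) after quantile normalization (difference -0.93, adjusted p = 0.0240) and with array weights (-0.87, 0.0402), and the smallest adjusted p was 0.0655 without wild-type vehicle replicate 2. Other settings weakened Smim8: its limma adjusted p was 0.998 with only the 7 knockout arrays, 0.99997 with the block and 0.307 with no filter. Leaving out single knockout arrays gave 0.0578 (without Ang II replicate 1) to 0.9995 (without vehicle replicate 2). Smim8 was not tested when signal was required on knockout arrays. Unadjusted counts ran from 54 (signal above 7) to 733 (no filter), with 623 for array weights and 473 without wild-type vehicle replicate 2. The count for the difference between genotypes was 0 under all 31 settings run, with 544 unadjusted without wild-type vehicle replicate 2 and 688 with array weights. In both tallies the rule that added a 1.5-fold threshold could only give 0, since the reported count was 0. The fit without wild-type vehicle replicate 2 entered the second tally more than once. Leaving out each array gave 0 to 0 calls in both. With the replicate number as a block, 0 genes were called in knockout cells (251 unadjusted) and 0 for the difference between genotypes (328 unadjusted), and Hmox1 turned to -0.072, Itga2b to -0.026 and Egfl7 to -0.062. After each gene's group mean was subtracted, same-numbered arrays correlated at -0.21, -0.02 and 0.00. These few values, centred within small groups, cannot settle whether the numbers pair the arrays. The block gives Ang II replicate 4 no weight.

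The difference kept its sign under every alternative for 112 of 124 named genes. Leaving out single arrays turned the sign of the others, with ranges of -0.28 to 0.013 for Cybb, -0.078 to 0.15 for Ncf1, -0.30 to 0.30 for Tnf, -0.072 to 0.71 for Hmox1, -0.22 to 0.041 for Rac1, -0.56 to 0.11 for Ltc4s, -0.016 to 0.36 for Prdm1, -0.026 to 0.28 for Itga2b, -0.35 to 0.084 for Dcn, -0.23 to 0.047 for Pecam1, -0.062 to 0.18 for Egfl7 and -0.10 to 0.30 for Gata2. The array interquartile range difference was -0.116 to 0.0058. Medians of lists under the alternatives were computed after the data were seen. Leaving out each knockout array in turn kept the sign of 14 of 34 list medians (renin-angiotensin system, costimulation, heat shock, oxidative phosphorylation, glycolysis and hypoxia, MHC class II presentation, MHC class I presentation, shared dendritic cell, plasmacytoid dendritic cell, monocyte, erythroid, B cell, NK cell, platelet and megakaryocyte), and at least 1 such omission turned that of the other 20. Without detection calls, signal over background was judged by the level of 5 alone, near which most of the 20 genes of smallest p lie.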
